A study of Mus musculus with 19 samples.

Results

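The glycolysis and hypoxia response genes are 36 mouse genes chosen by name: glucose carriers, the enzymes of glycolysis, the lactate step with its carriers, kinases that set flux, the glycogen branch, the oxygen sensors and genes known to be induced by low oxygen. They were found by symbol in both deposited tables of regulatory T (Treg) cells, 34 of the 36 among the 14290 genes with values in the stimulated set and 36 of the 36 among the 14818 genes of the sorted set. The stimulated table has no row for Pkm or Pfkfb4. Of the members present, 33 in the stimulated set and 35 in the sorted set reached 1 RPKM (reads per kilobase of transcript, scaled to library depth by the authors) in at least 2 libraries and were tested. Eno1 in the stimulated set and Vegfa in the sorted set did not.

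All 19 libraries came from YFP+ cells of C57Bl/6 mice that carry Foxp3-CRE-YFP, in which the Foxp3 promoter drives Cre together with YFP, so every control carries the Cre as well. In the stimulated set, cells were cultured for 16 hours on plate-bound anti-CD3 at 5 ug/mL with soluble anti-CD28 at 1 ug/mL and IL-2 at 10 ng/mL: wild-type (WT) cells with water (2 libraries), WT cells with pentoxifylline at 500 ug/mL (2), and cells of the strain with c-Rel F/F (2). In the sorted set, RNA was taken directly after sorting from spleen and lymph node Treg cells: rTreg (sorted as CD44lo) from WT, p65 F/F and c-Rel F/F mice (2 libraries each), and aTreg (sorted as CD44hi) from WT (3), p65 F/F (2) and c-Rel F/F mice (2). Pentoxifylline is a methylxanthine that inhibits phosphodiesterases. p65 (gene Rela) and c-Rel (gene Rel) are NF-kB subunits. The sample titles call the stimulated c-Rel F/F cells c-Rel-/-, and the sorted p65 F/F and c-Rel F/F cells p65KO and crelKO. The labels do not say whether libraries of a group came from separate mice, so the p-values measure the spread between these libraries, which may be technical. The sorted values were adjusted before deposit, so for that set the p-values measure only the spread left after the adjustment. The fit made no allowance for it, and these p-values may be too small.

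Glycolysis turns glucose into pyruvate, and lactate dehydrogenase then makes lactate, which leaves the cell with a proton through monocarboxylate carriers. Hif1a encodes the subunit of the HIF transcription factor that prolyl hydroxylases (Egln genes) mark for degradation when oxygen is present; stabilised HIF binds the letters RCGTG near many of these genes. Activated T cells raise glucose uptake and glycolysis, and Treg cells are known to depend on it less than effector T cells do.

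The values carry no read counts. From the value that a single read takes in genes of low level, the depth of the stimulated libraries relative to the first water library was 0.949 for the second, 0.793 and 0.682 with pentoxifylline, and 0.915 and 0.853 for c-Rel F/F. The deleted gene was checked first. Rel was 55.1 and 55.8 RPKM with water but 2.44 and 25.0 in the libraries labelled c-Rel F/F, so the second of these retained Rel reads, and results that involve this group are given without it where they change. In the sorted set Rel was 1.39 to 5.37 RPKM in the c-Rel F/F libraries and 10.9 to 22.0 in WT. Rela was 46.8 to 69.4 in p65 F/F and 62.3 to 71.5 in WT libraries; the labels do not give the floxed exons, so this whole-gene value does not check the label. Foxp3 was present in every library (28.1 to 289.6 RPKM), as was Cd4 (188 to 318), while Cd8a stayed under 1 RPKM in every library. The other CD8 gene, Cd8b1, was present: Cd8a and Cd8b1 summed to 7.96 to 22.1 RPKM over the libraries, most of it Cd8b1.

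Of the 33 members tested, 11 fell and 3 rose against water (limma on log2(RPKM + 0.5), Benjamini-Hochberg adjusted p under 0.05 over 9945 genes), where 23.9% of all genes tested fell and 19.6% rose. The share of members called in either direction was therefore near the 43.5% of all genes. Their log2 differences had a median of -0.39, beside 0.0013 over all genes. Both treated libraries lay below both controls in 18 members and above them in 8, where this held for 38.3% and 37.2% of all genes. In bulk RNA, fewer cells of a type and less RNA per cell cannot be told apart.

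Glucose carriers did not pass the test. Slc2a1, the main glucose carrier of activated T cells, was 40.8 and 45.1 RPKM with water and 39.1 and 42.0 with pentoxifylline, and the ranges meet. Slc2a3, a carrier of high affinity, was 17.6 and 15.8 RPKM with water and 23.9 and 18.5 with pentoxifylline, a log2 difference of 0.33 ± 0.18 (SE; adjusted p = 0.178).

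In upper glycolysis, from hexokinase to triosephosphate isomerase, 6 of 9 members fell and none rose, where 23.9% of all genes fell and 19.6% rose. Counts by role were not tested against these shares. Hk2, the inducible hexokinase that traps glucose in the cell, was 14.8 and 20.3 RPKM with water and 3.75 and 5.67 with pentoxifylline. Both treated libraries lay below both controls, a log2 difference of -1.80 ± 0.22 (SE; adjusted p = 0.00134). Hk1, the constitutive hexokinase, was 60.2 and 78.3 against 51.5 and 62.7 RPKM, with overlapping libraries (adjusted p = 0.279). The Hk2 share of summed Hk1 and Hk2 RPKM was thus 19.7% and 20.6% with water and 6.79% and 8.29% with pentoxifylline. Triosephosphate isomerase, Tpi1, which interconverts the triose products of aldolase, was 135 and 160.4 RPKM with water and 56.1 and 62.5 with pentoxifylline, a difference of -1.31 ± 0.14 (adjusted p = 0.000928).

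All 3 phosphofructokinase genes, which encode the subunits of the committed step, fell. Pfkm was 5.90 and 6.02 RPKM with water and 2.66 and 3.28 with pentoxifylline (log2 difference -0.90 ± 0.17, adjusted p = 0.0059). Pfkl went from 32.7 and 40.7 to 22.6 and 19.8 RPKM (-0.77 ± 0.16, adjusted p = 0.0074). Pfkp, the most abundant of them, fell by 0.64 on the log2 scale. Since they fell together, the Pfkp share of the summed RPKM of the 3 genes was 55.5% to 59.8% with water and 59.8% to 61.0% with pentoxifylline. Aldoc, a minor aldolase here, fell by 1.50 on the log2 scale from 3.38 and 3.51 RPKM, whereas the dominant Aldoa was 543 and 684 against 509 and 489.6 RPKM and did not pass (adjusted p = 0.294). Gpi1, the isomerase between the hexose phosphates, did not pass either (log2 difference 0.22 ± 0.16).

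In lower glycolysis, where ATP is made, 2 of 4 members tested fell, where 23.9% of all genes fell. With so few members this count is not read as a result about the role. Pgk1, phosphoglycerate kinase, was 28.0 and 32.6 RPKM with water and 10.8 and 12.1 with pentoxifylline (log2 difference -1.36 ± 0.16, adjusted p = 0.00108). Pgam1, the mutase that follows it, was 7.96 and 9.07 against 2.89 and 4.21 RPKM (-1.17 ± 0.20, adjusted p = 0.0039). The libraries of both genes were fully separated. Enolase 2, Eno2, was 4.49 and 2.88 RPKM with water and 8.69 and 3.49 with pentoxifylline, where the first treated library alone stood high. Levels of several of these genes are uncertain because other genes, mostly processed pseudogenes, share their sequence: of the 50-base windows of the annotated transcripts, 82.5% in Gapdh, 72.2% in Eno1, 68.0% in Pgk1 and 41.5% in Pgam1 also occur in transcripts of another gene. Gapdh was listed at only 2.63 to 4.35 RPKM in the stimulated set and Eno1 at 0 to 0.0844. Of the members called with pentoxifylline, Hk2, Slc16a1, Slc16a3, Pdk3, Pfkm and Aldoc share none and Pfkl shares 0.05%. Tpi1 shares 7.51%, Ndrg1 14.6%, Ldha 16.6%, Pfkp 17.1% and Bnip3l 23.4%.

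At the lactate step the carriers moved in opposite directions. Slc16a1, a carrier that takes lactate in or out, was 29.8 and 40.3 RPKM with water and 9.34 and 10.2 with pentoxifylline. Slc16a3, the carrier tuned to lactate export and a known HIF target, was 27.1 and 31.1 against 62.6 and 55.4 RPKM. In both genes the treated and control libraries were fully separated. The log2 differences were -1.77 ± 0.18 for Slc16a1 (adjusted p = 0.000746) and 1.01 ± 0.20 for Slc16a3 (adjusted p = 0.0074). As a result the Slc16a3 share of the summed RPKM of both carriers was 47.6% and 43.6% with water and 87.0% and 84.4% with pentoxifylline. Ldha, which makes lactate, was 423 and 613 RPKM with water and 211 and 264 with pentoxifylline (-1.11 ± 0.23, adjusted p = 0.0080). Ldhb, the isozyme that favours pyruvate, did not pass (-0.43 ± 0.22, adjusted p = 0.144).

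**Figure D1:**
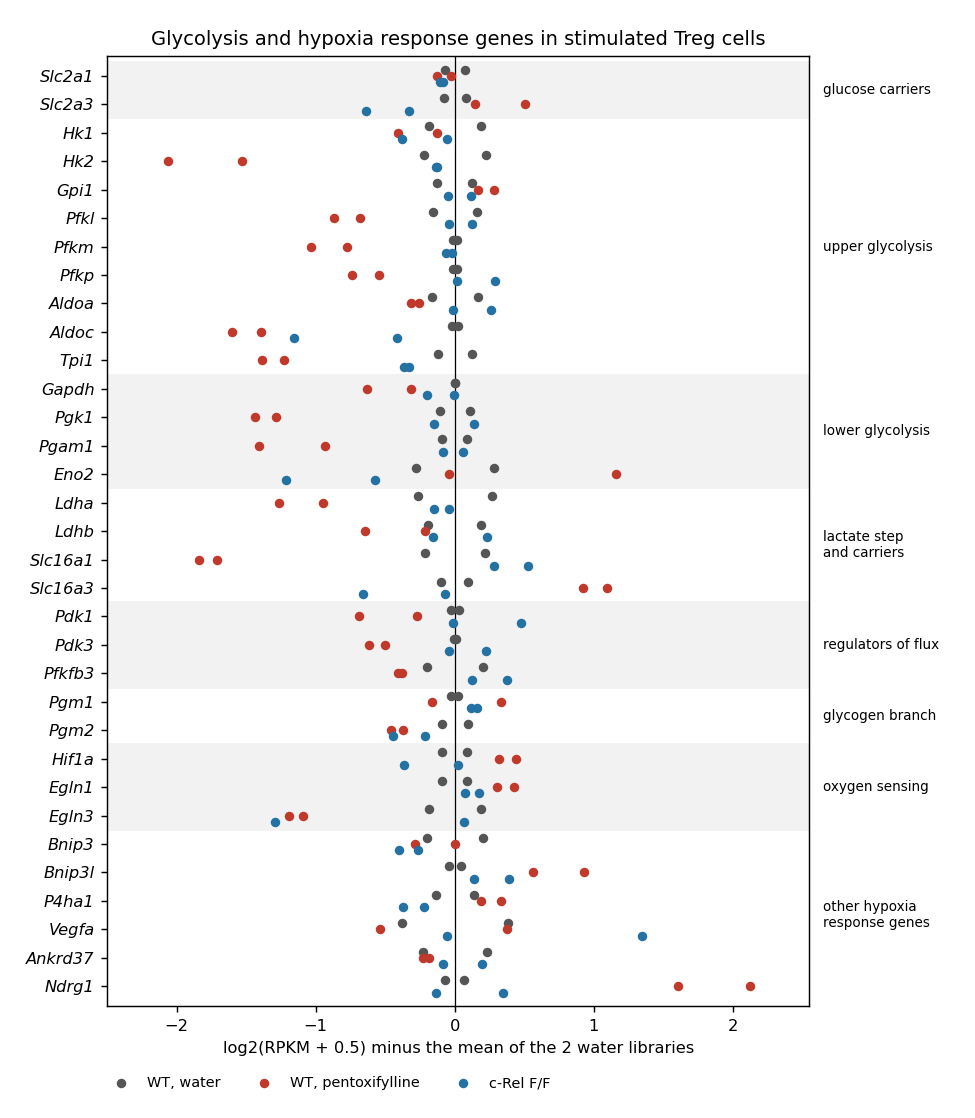
Each point is a library of the stimulated set: the horizontal axis gives log2(RPKM + 0.5) minus the mean of the 2 water libraries, and rows are the 33 tested genes ordered by role. Red points (pentoxifylline) sit left of the grey points (water) for Hk2, Tpi1, Pgk1, Ldha and Slc16a1 and right of them for Slc16a3, Bnip3l and Ndrg1; blue points (c-Rel F/F) passed no test against water.

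Kinases that set flux and the glycogen branch moved less. Pdk3, a kinase that switches off pyruvate dehydrogenase, was 26.05 and 25.8 RPKM with water and 16.7 and 18.2 with pentoxifylline (log2 difference -0.56 ± 0.14, adjusted p = 0.0162). Its paralog Pdk1 was 16.6 and 15.9 RPKM with water and 9.92 and 13.4 with pentoxifylline and did not pass (adjusted p = 0.101), and neither did Pfkfb3, which makes the activator of phosphofructokinase (adjusted p = 0.0993). Neither phosphoglucomutase symbol passed. In the reference each of Pgm1 and Pgm2 is an older name of the other, so which gene each row holds cannot be told.

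Among the oxygen sensors none passed the test. Hif1a was 235 and 207 RPKM with water and 275 and 299.8 with pentoxifylline, and the libraries were separated (log2 difference 0.38 ± 0.18, adjusted p = 0.130). Egln1, the main prolyl hydroxylase, was 30.3 and 34.3 against 39.9 and 43.5 RPKM (adjusted p = 0.0576). Egln3, a hydroxylase that is itself a HIF target, was 12.2 and 9.27 against 4.37 and 4.73 RPKM (-1.14 ± 0.40, adjusted p = 0.052). The call on Egln3 depends on the setting. It passed when only these 2 groups were fitted, with a filter at 3 RPKM, and with the replicate number as a term. Egln1 passed with median-of-ratios scaling. In the authors' deposited table Egln3 has a log2 fold change of -1.20 and passes (adjusted p = 0.00159 after adjusting their p-values here), and Pdk3 does not (0.0889); that table calls 14 members, 3 higher and 11 lower (9.77% and 12.9% of its genes), 13 of which are also among the 14 here.

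Of the 6 other hypoxia response genes 2 rose, where 19.6% of all genes rose. With so few members this count is not read as a result about the role. Ndrg1, a stress-responsive gene induced by low oxygen, was 25.1 and 22.8 RPKM with water and 105.8 and 73.7 with pentoxifylline. This was the largest difference among the members, 1.86 ± 0.22 on the log2 scale (adjusted p = 0.00117). Bnip3l, a mitophagy receptor, was 22.6 and 21.2 against 32.6 and 42.1 RPKM (0.75 ± 0.17, adjusted p = 0.0107). Its paralog Bnip3, P4ha1 (a collagen prolyl hydroxylase), Ankrd37 and Vegfa (the vascular growth factor, 0.304 to 1.02 RPKM in these libraries) did not pass, with log2 differences from -0.21 to 0.26.

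Leaving out single libraries kept 11 to 14 members called in the comparison of pentoxifylline with water. Without the second water library Bnip3l (adjusted p = 0.0623), Pdk3 and Pfkp were lost and 11 remained. Without the first pentoxifylline library Ldha (adjusted p = 0.0658) and Pdk3 were lost and 12 remained. Pdk3 was also lost without the first water library, where Pfkfb3 was gained, and Pfkp without the second pentoxifylline library, where Eno2 was gained. Other marker lists moved with the treatment, and their part in these results was not tested: the summed RPKM of 6 markers of resting T cells was 909 and 972 with water and 1999 and 2088 with pentoxifylline (4 of 6 rose), that of 8 stress and dissociation genes 213 and 249.7 against 149.7 and 137 (4 of 7 tested fell), and that of 8 B cell markers 40.5 and 52.3 against 19.5 and 12.5 (3 of 5 tested fell). The 4 NK and cytotoxic markers in the table summed to 36.7 and 56.8 RPKM with water and 8.39 and 10.1 with pentoxifylline (1 of 2 tested fell). For 4 markers of activated cells the sum was 357 and 341 RPKM against 341 and 389.8, with 2 of 4 lower and none higher. For 7 Treg markers it was 2988 and 3111 against 2198 and 2768, with 1 of 7 lower and none higher. Their part was not tested either.

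Genes of neighbouring pathways, listed from general knowledge, are given as counts. Of all genes tested 23.9% fell and 19.6% rose, 43.5% together, so a count near these shares is no result about a list. In the pentose phosphate pathway, which leaves glycolysis after hexokinase, 4 of 7 genes tested fell and none rose; Tkt, transketolase, was 160.8 ± 42.2 RPKM (SD, n = 2) with water and 67.5 ± 4.2 with pentoxifylline, and Pgd, which makes NADPH, 65.8 ± 16.3 against 26.2 ± 5.1. Of 9 genes for the entry of pyruvate into mitochondria 2 rose and 3 fell. Pdp1, the phosphatase that reverses the Pdk kinases, rose by 0.69 on the log2 scale and Pdhx, a pyruvate dehydrogenase component, fell by 0.56. Of 17 other glycolytic, gluconeogenic and glucose carrier genes 3 rose and 4 fell. Galk1, galactokinase, fell by 3.35 and Eno3, a muscle enolase, by 2.01 on the log2 scale.

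The oxygen sensing list and the upstream list held larger changes than Hif1a itself. Of 11 genes of the HIF machinery 4 rose and 2 fell, where 19.6% of all genes rose and 23.9% fell. Epas1, which encodes the HIF-2 alpha subunit, rose from 1.30 ± 0.51 to 7.79 ± 0.24 RPKM (SD, n = 2; adjusted p = 0.00091), and Arnt, the shared partner of the alpha subunits, from 32.2 ± 3.2 to 79.2 ± 12.2 (adjusted p = 0.00124). Of 25 further hypoxia response genes 10 rose and 5 fell. The 2 with the largest log2 differences were among those that fell. Car12, a carbonic anhydrase, fell from 7.22 ± 1.27 to 0.193 ± 0.186 RPKM and Mif, a cytokine, from 244 ± 89 to 45.7 ± 6.8. The largest rise was that of Mxi1, from 15.0 ± 2.6 to 51.9 ± 8.3 RPKM. Of 13 upstream regulators 4 rose and 3 fell. Myc, a transcription factor that drives glycolytic genes in activated T cells, was 157 and 219 RPKM with water and 25.4 and 47.2 with pentoxifylline, and Irf4 fell by 2.10 on the log2 scale.

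The 250 bases upstream of each start in the RefSeq promoter table (GRCm38) were searched on both strands for ACGTG or GCGTG, the HIF core. Of the 33 members in that table (all but Slc2a3, Bnip3l and Ndrg1) 30 (90.91%) held it before at least 1 start, beside 41.54% of all 27025 genes and 63.5% of the 7568 genes of the table tested in the stimulated set. CACGTG, an E-box that contains ACGTG on each strand, stood before 6 members (18.18%, beside 6.86% of all genes and 10.41% of those tested), a loose NF-kB pattern (GGG and CC with 5 free bases between) before 27 (81.82%, beside 48.65% and 67.36%), and TGACGTCA, a cyclic AMP response element, before 1 (3.03%, beside 1.77% and 3.30%). A match is a description of these letters, not a bound site. Some members were chosen as genes known to be induced by low oxygen, so their share with the HIF core is no independent result. Genes with several starts also had more bases searched. The windows of Slc16a3, which rose, and of 4 members that fell, chosen after their values were seen, are printed so that carriers and enzymes can be compared, 5′ to 3′ on the gene's strand, with HIF core letters of either strand in capitals (on the opposite strand they read CACGT or CACGC).
Slc16a1, chr3:104638414-104638663, plus strand: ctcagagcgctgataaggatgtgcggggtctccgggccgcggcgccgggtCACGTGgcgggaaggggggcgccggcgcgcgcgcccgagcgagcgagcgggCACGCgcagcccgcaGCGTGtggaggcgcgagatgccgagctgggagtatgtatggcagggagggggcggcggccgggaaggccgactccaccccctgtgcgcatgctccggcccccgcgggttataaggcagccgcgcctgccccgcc
Slc16a3, chr11:120948817-120949066, plus strand: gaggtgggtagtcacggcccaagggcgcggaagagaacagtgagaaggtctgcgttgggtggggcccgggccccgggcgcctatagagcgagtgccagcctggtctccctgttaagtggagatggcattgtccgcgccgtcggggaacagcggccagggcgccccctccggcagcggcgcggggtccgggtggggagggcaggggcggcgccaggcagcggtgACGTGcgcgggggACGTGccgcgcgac
Hk2, chr6:82774455-82774704, minus strand: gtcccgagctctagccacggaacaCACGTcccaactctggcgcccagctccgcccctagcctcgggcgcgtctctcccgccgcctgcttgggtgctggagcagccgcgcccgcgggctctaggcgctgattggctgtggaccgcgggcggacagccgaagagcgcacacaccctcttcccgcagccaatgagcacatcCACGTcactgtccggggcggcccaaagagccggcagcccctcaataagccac
Pgk1, chrX:106186850-106187099, plus strand: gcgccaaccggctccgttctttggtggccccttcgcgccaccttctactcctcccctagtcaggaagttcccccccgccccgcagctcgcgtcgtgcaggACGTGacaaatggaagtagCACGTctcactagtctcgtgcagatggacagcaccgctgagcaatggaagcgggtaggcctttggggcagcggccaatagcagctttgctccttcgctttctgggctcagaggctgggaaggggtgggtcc
Ldha, chr7:46845554-46845803, plus strand: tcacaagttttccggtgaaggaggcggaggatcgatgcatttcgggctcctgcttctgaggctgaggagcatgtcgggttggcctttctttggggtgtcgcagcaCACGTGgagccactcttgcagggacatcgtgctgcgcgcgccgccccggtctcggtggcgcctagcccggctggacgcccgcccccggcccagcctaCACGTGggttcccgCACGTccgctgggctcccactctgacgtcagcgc
Ldha held 5 matches, of which 4 are the strands of its 2 E-boxes, Slc16a1 held 4, of which 2 are the strands of its E-box, and Slc16a3, Hk2 and Pgk1 held 2 each. The window of Tpi1, which fell as well, held none. Both lactate carriers hold the core, and whether it has a part in any of these changes was not tested. Ldha also holds the only TGACGTCA among the members. The genes lie on GRCm38 at chr3:104638668-104658462 (Slc16a1), chr11:120948480-120960868 (Slc16a3), chr6:82725025-82774454 (Hk2), chrX:106187100-106203699 (Pgk1) and chr7:46841475-46855627 (Ldha).

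In the stimulated c-Rel F/F cells 0 of 33 members passed the test against water, as did 0% of all 9945 genes (limma); at an unadjusted p under 0.05 these were 3 members and 791 genes. The authors' deposited table also calls 0 of 34 members, with 0.483% of genes higher and 1.66% lower. Among members whose libraries were separated and whose higher group averaged 5 RPKM or more, the 4 with the largest difference are given as values. Below that level Eno2 (1.27 and 2.26 RPKM, beside 4.49 and 2.88 with water) and Aldoc (1.27 and 2.46, beside 3.38 and 3.51) were separated by more, with log2 differences of -0.89 and -0.78. Slc2a3 was 10.5 and 13.2 RPKM, beside 17.6 and 15.8 with water (log2 difference -0.48 ± 0.18, adjusted p = 0.55). Slc16a1 was 50.1 and 42.2 beside 29.8 and 40.3 RPKM (0.40 ± 0.18), so these cells and the pentoxifylline cells stood on opposite sides of water for both genes. Tpi1 was 114.5 and 117 RPKM (-0.34 ± 0.14) and Pgm2 23.6 and 20.04 (-0.33 ± 0.14).

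The c-Rel F/F libraries differed from each other. Egln3 was 4.03 RPKM in the first and 11.2 in the second, Hif1a 171 and 225, and Slc16a3 18.2 and 27.6. In these 3 genes the second library was the nearer to the controls. For the Bnip3 share of summed Bnip3 and Bnip3l RPKM the first was the nearer. That share was 13.0% in the first and 10.1% in the second, beside 18.7% and 15.1% with water. It is uncertain, because 62.4% of the 50-base windows of Bnip3 and 23.4% of those of Bnip3l also occur in another gene. Whether retained Rel has a part in these differences was not tested. Without the second library the group is 1 library, with Egln3 at 4.03 RPKM beside a mean of 10.7 with water. That fit has no spread within this group, so its calls are not read as results. The summed resting markers were 1773 in the first and 1130 in the second.

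Pentoxifylline and c-Rel F/F cells differed in 19 members: 7 were higher and 12 lower with pentoxifylline, where 21.6% of all genes were higher and 26.8% lower, 48.4% together. This comparison shares its treated libraries with the one above, so only what it adds is given. Ndrg1 was 30.6 and 21.7 RPKM in the c-Rel F/F libraries, Slc16a3 18.2 and 27.6, and Bnip3l 24.1 and 28.8, all below both pentoxifylline libraries. Hk2 was 15.8 and 15.7 RPKM, Pgk1 33.3 and 27.2, Pgam1 8.86 and 7.98 and Ldha 459.5 and 496, all above both pentoxifylline libraries, as were Pfkm (5.88 and 5.69) and Pfkl (39.8 and 35.4). These genes differed in the same direction as against water. Slc2a3 was higher with pentoxifylline (21.2 ± 3.8 against 11.9 ± 1.9 RPKM, SD, n = 2; 0.81 ± 0.18 on the log2 scale, adjusted p = 0.0091). P4ha1, at 32.1 and 29.1 against 19.5 and 21.7 RPKM, was higher by 0.56 ± 0.15 (adjusted p = 0.0183) and Hif1a by 0.55 ± 0.18. Slc16a1 had the largest difference, -2.18 ± 0.18 (adjusted p = 0.000318). Eno2 was higher by 1.45 ± 0.42, of which the first pentoxifylline library with 8.69 RPKM made a large part. Without that library 12 members were called, and Eno2, Hif1a, Ldha, P4ha1, Pdk1, Pfkfb3 and Slc2a3 were lost. Without the first c-Rel F/F library 14 were called, with Bnip3l, Eno2, Hif1a, P4ha1, Pdk1, Pfkfb3 and Slc2a3 lost and Aldoc and Egln3 gained. Without the second pentoxifylline library 16 were called (Bnip3l, Hif1a and Pfkfb3 lost) and without the second c-Rel F/F library 17 (Bnip3l and Pdk3 lost).

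**Figure D2:**
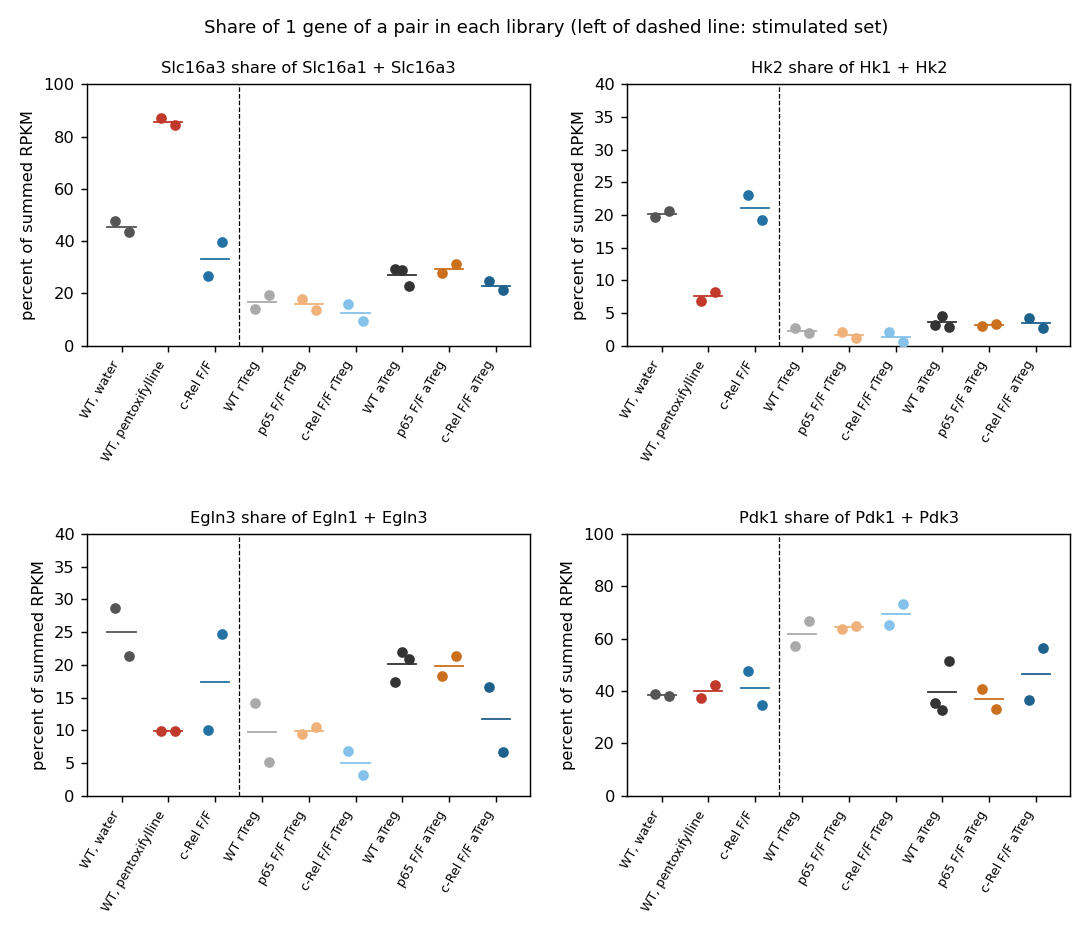
Each point is a library and each short horizontal line a group mean: the vertical axis gives the percent of the summed RPKM of a gene pair that is held by Slc16a3, Hk2, Egln3 or Pdk1. Within the stimulated set, left of the dashed line, pentoxifylline gave the highest Slc16a3 share (84.4% to 87.0%) and the lowest Hk2 share (6.79% to 8.29%, beside 19.7% to 20.6% with water); the sets are not compared with each other.

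The sorted set was adjusted by the authors before deposit in a way the sources used here do not describe, and its levels are not compared with those of the stimulated set. Cd44, the gene of a protein used in the sort, was 6.52 to 19.4 RPKM in the rTreg libraries. Among aTreg it was 49.4, 45.2 and 26.4 in WT, 34.5 and 32.8 in p65 F/F and 61.2 and 32.9 in c-Rel F/F. The summed RPKM of 4 markers of activated cells was 63.8 to 104 in rTreg, and in aTreg 446, 409 and 227 in WT, 384 and 416 in p65 F/F and 321 and 250.5 in c-Rel F/F. The third WT aTreg library and the second c-Rel F/F aTreg library (replicate 3 in the labels) stood nearest to rTreg in this sum, and the former also in Cd44.

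In WT mice Hif1a had the largest difference between aTreg and rTreg among the members that passed. Of 35 tested, 5 were higher and 0 lower, where 7.54% of all 10656 genes were higher and 4.68% lower, 12.2% together, so the share called was near that of all genes. All aTreg libraries lay above both rTreg libraries in 13 members and below them in 5, where this held for 19% and 21.9% of all genes. Hif1a was 42.6 and 44.6 RPKM in rTreg and 144.7, 109 and 99.0 in aTreg, fully separated (log2 difference 1.40 ± 0.19, adjusted p = 0.0060). Tpi1 was 40.4 and 28.3 against 56.1, 56.1 and 51.1 RPKM (0.68 ± 0.14, adjusted p = 0.0222). Slc16a3 was 1.53 and 2.17 against 5.13, 4.60 and 3.66 RPKM (1.08 ± 0.24, adjusted p = 0.0248). These 3 rose in the authors' deposited table too. Slc16a1 (9.50 and 8.90 against 12.5, 11.2 and 12.4 RPKM, adjusted p = 0.0410) and Hk1 (25.4 and 29.1 against 36.2, 35.1 and 33.1 RPKM, adjusted p = 0.0459) rose by less, 0.37 and 0.35 on the log2 scale.

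Members that did not pass include most enzymes of glycolysis. Hk2, at 0.562 to 1.70 RPKM, was 0.717 and 0.562 in WT rTreg and 1.20, 1.70 and 1.00 in WT aTreg. Ldha was 562 and 340.4 RPKM in rTreg and 266, 307 and 378 in aTreg, with overlapping libraries. Gapdh, at 168 to 272 RPKM over the sorted libraries, and Pgk1, at 50.6 to 82.2, likewise did not pass in any comparison of this set, and Pfkfb4, a paralog of Pfkfb3, was low (1.22 to 2.648 RPKM). Slc2a1 was 28.7 and 27.01 against 20.0, 22.2 and 22.3 RPKM (adjusted p = 0.0708), and Pkm, pyruvate kinase, was 187 and 159.7 against 182, 189.8 and 178. Pdk1 was 30.0 and 33.0 RPKM in rTreg and 15.5, 12.4 and 25.4 in aTreg (-0.87 ± 0.32, adjusted p = 0.0892), where the highest aTreg value is the library with the lowest activated markers. P4ha1 was 30.3 and 33.0 against 16.6, 22.2 and 28.1 RPKM, with the highest aTreg value in that library again. Egln3 was 4.41 and 1.65 against 6.58, 6.94 and 7.95 RPKM (adjusted p = 0.0648). The authors' deposited table calls 6 members in this comparison, 4 higher and 2 lower (7.98% and 3.26% of its genes): beside Hif1a, Tpi1 and Slc16a3 it has Egln3 higher (log2 1.31) and Pdk1 (-1.24) and P4ha1 (-0.72) lower, and it does not call Slc16a1 or Hk1.

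The calls in WT cells rest on few libraries. Without the first or without the second aTreg library Hif1a alone was called (1 member each). Without the third 8 members were called, 6 higher and 2 lower, with Aldoc, P4ha1, Pdk1 and Pdk3 gained and Slc16a1 lost. Without the first rTreg library 4 were called (Hk1, Slc16a1 and Slc16a3 lost, Pdk3 and Pgam1 gained) and without the second 6 (Slc16a1 lost, Eno1 and Ldha gained). Slc16a1 was thus lost without any of the 5 libraries (adjusted p = 0.0531 to 0.143 in limma). With the replicate number as a term in the fit, Hk1 and Slc16a1 were lost (adjusted p = 0.0617 and 0.0594 in limma), and Ndrg1, P4ha1, Pdk1, Pdk3, Pgam1 and Slc2a1 were gained. The summed RPKM of 5 NK and cytotoxic markers was 38.2 and 22.0 in WT rTreg and 116, 61.7 and 56.2 in WT aTreg (of 4 tested 1 rose and 1 fell), 23.99 to 38.5 against 101.6 to 124 in p65 F/F and 29.0 to 29.6 against 79.8 to 173 in c-Rel F/F. The part of these markers and of the activated marker level in these results was not tested.

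**Figure D3:**
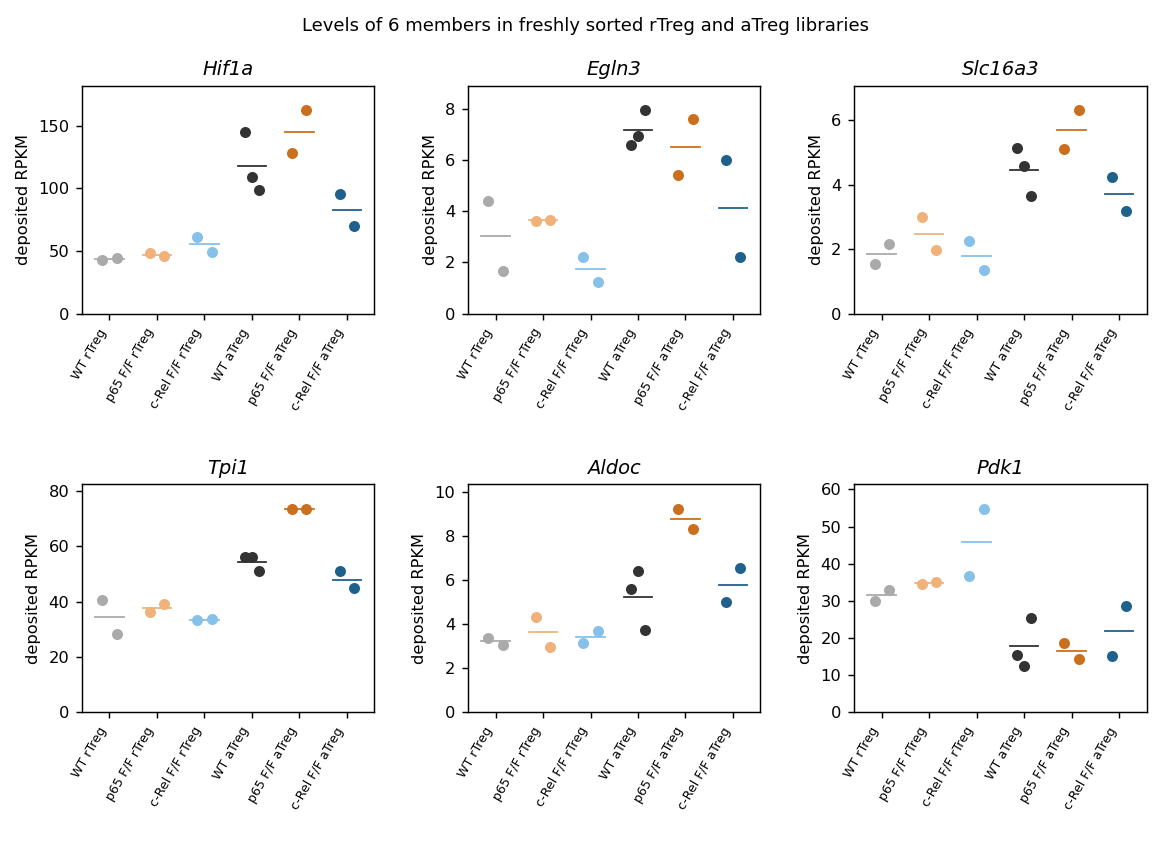
Deposited RPKM of 6 members in each sorted library (points) with group means (short horizontal lines), the vertical axes starting at 0. Hif1a was 42.6 to 61.6 RPKM in all rTreg libraries and 70.0 to 162 in all aTreg libraries, and Pdk1 30.0 to 54.8 in rTreg and 12.4 to 28.7 in aTreg.

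In p65 F/F mice 3 members were higher in aTreg than in rTreg and 0 lower, where 2.79% of all genes were higher and 0.385% lower, 3.17% together. Hif1a was 48.1 and 46.0 RPKM in rTreg and 128 and 162 in aTreg (log2 difference 1.61 ± 0.21, adjusted p = 0.0085). Tpi1 was 36.4 and 39.0 against 73.5 and 73.5 RPKM (0.96 ± 0.15, adjusted p = 0.0122), and Aldoc 4.34 and 2.97 against 9.24 and 8.33 (1.18 ± 0.24, adjusted p = 0.0294). Each of the 3 was separated between the subsets. Slc16a3 was 2.99 and 1.97 against 5.10 and 6.32 RPKM and missed the threshold (adjusted p = 0.0532). Leaving out any of these 4 libraries left 0 members called, with 0 to 11 genes called in all; Hif1a then had an adjusted p of 0.0666 to 0.0727.

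In c-Rel F/F mice 0 of 35 members passed between aTreg and rTreg, as did 0% of all genes (limma); at an unadjusted p under 0.05 these were 9 members and 1494 genes. With the replicate number as a term 4 members passed, Hif1a (adjusted p = 0.04995 in limma) and Slc16a3 higher and Pdk1 (0.00742) and P4ha1 lower. The share of all genes that passed in that fit is not given here, so the 4 are not read as particular to the members. Hif1a was 61.6 and 48.9 RPKM in rTreg and 95.7 and 70.0 in aTreg, which did not overlap (0.57 ± 0.21, adjusted p = 0.268). Pdk1 was 36.8 and 54.8 against 15.1 and 28.7 RPKM (-1.09 ± 0.35, adjusted p = 0.226), Tpi1 33.3 and 33.5 against 51.1 and 44.7 (0.51 ± 0.15), and Aldoc 3.15 and 3.69 against 5.00 and 6.55 (0.67 ± 0.24). The test of whether the aTreg difference itself differed from WT gave -0.83 ± 0.29 for Hif1a in c-Rel F/F (limma, adjusted p = 0.898) and passed for 0 members and 0 genes in either strain (limma; 497 genes in c-Rel F/F and 237 in p65 F/F at an unadjusted p under 0.05). A weaker rise of Hif1a in c-Rel F/F cells is thus not established.

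**Figure D4:**
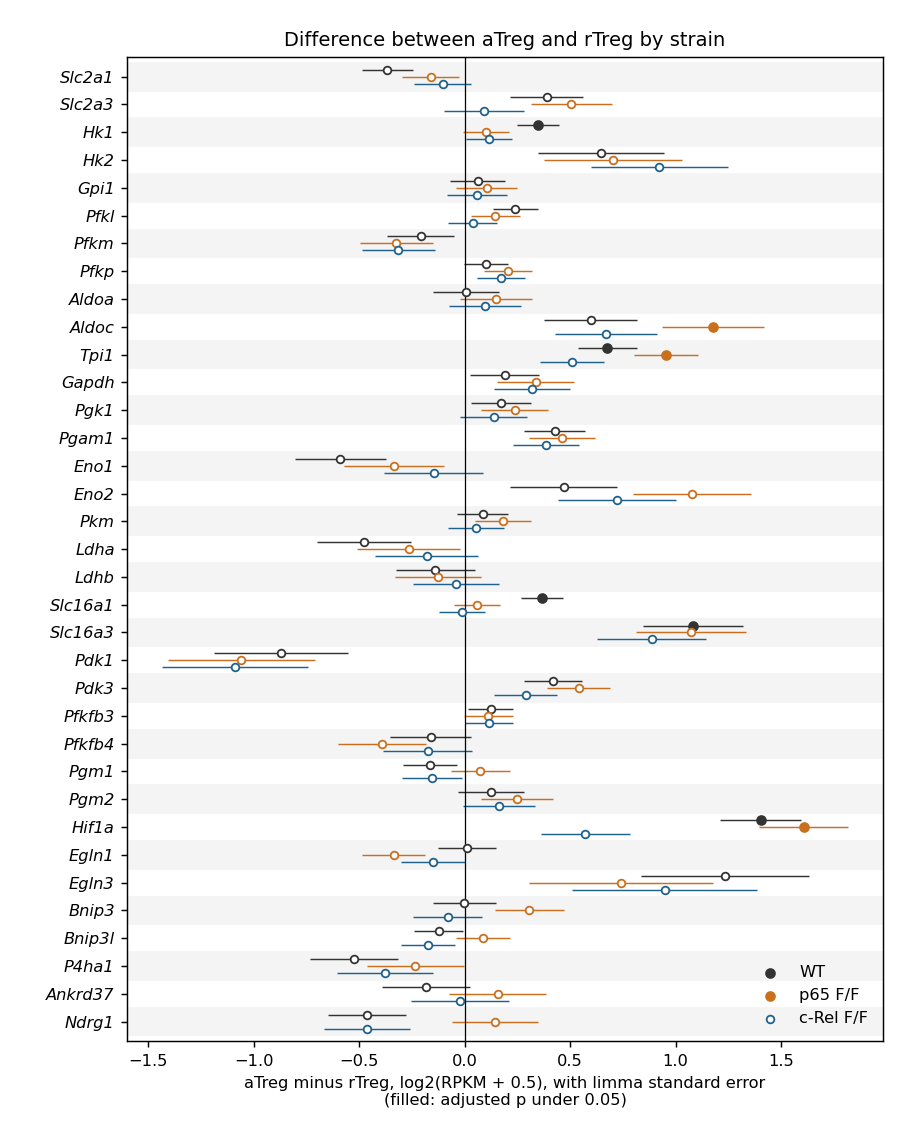
aTreg minus rTreg difference on the log2(RPKM + 0.5) scale with its limma standard error for the 35 tested members in WT (black), p65 F/F (orange) and c-Rel F/F (blue); filled points passed an adjusted p under 0.05. Hif1a, Tpi1 and Slc16a3 lie right of 0 and Pdk1 left of 0 in all 3 strains.

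Between strains, within a subset, 0 of 35 members passed in any of 6 comparisons, and 0% of all genes passed (limma; 215 to 775 genes and 2 to 5 members at an unadjusted p under 0.05). The authors' deposited table calls 0 of 36 members in each of the 4 comparisons with WT it holds. These comparisons share libraries, and the members are given as values. In rTreg Slc16a1 was 13.7 and 12.4 RPKM in p65 F/F and 12.0 and 12.9 in c-Rel F/F, beside 9.50 and 8.90 in WT, with log2 differences of 0.48 ± 0.11 (adjusted p = 0.527) and 0.41 ± 0.11 (0.627). Hk1 was 33.4 and 32.3 RPKM in p65 F/F (0.27 ± 0.11 against WT), Pfkl 28.2 and 22.9 (0.25 ± 0.12) and Egln1 34.6 and 31.3 (0.22 ± 0.15), each just above both WT libraries. In c-Rel F/F rTreg Pdk1 was 36.8 and 54.8 RPKM beside 30.0 and 33.0 in WT (0.50 ± 0.35), Ndrg1 7.73 and 7.10 beside 5.16 and 5.36 (0.46 ± 0.20), and Ldhb 29.1 and 26.2 beside 46.5 and 30.7 (-0.45 ± 0.20). The second c-Rel F/F library alone carries most of the Pdk1 difference. In that library Foxp3 was 28.1 RPKM, beside 53.5 to 101.6 in the other sorted libraries. Cd4 was 318 there and 207 to 299 in the others. Whether a different cell make-up of that library has a part in the c-Rel F/F rTreg values was not tested. Set against c-Rel F/F rTreg, p65 F/F rTreg had lower values of Ndrg1 (4.76 and 5.81 RPKM), Pgm1 (15.9 and 15.6 beside 19.7 and 21.2) and Pdk1 (34.6 and 35.0), and higher values of Ldhb (32.4 and 38.5); the log2 differences ran from -0.46 to 0.35.

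In aTreg of p65 F/F mice Aldoc was 9.24 and 8.33 RPKM beside 5.59, 6.43 and 3.71 in WT (0.72 ± 0.22), and Ndrg1 5.46 and 6.31 beside 3.70, 3.40 and 3.96 (0.61 ± 0.19; adjusted p = 0.998 for both in limma). P4ha1 (29.4 and 32.5 RPKM, 0.49 ± 0.21) and Tpi1 (73.5 and 73.5, 0.43 ± 0.14) were also above all WT libraries. In c-Rel F/F aTreg Hif1a was below all 3 WT libraries (-0.50 ± 0.19, adjusted p = 0.597), as was Egln3 with 6.01 and 2.21 RPKM (-0.86 ± 0.40, adjusted p = 0.757). Pgm1, at 16.7 and 20.1 RPKM, and Ndrg1, at 3.99 and 6.82, were above them (0.37 ± 0.13 and 0.46 ± 0.19). Between p65 F/F and c-Rel F/F aTreg, Hif1a differed by 0.81 ± 0.21 (adjusted p = 0.419), Tpi1 by 0.61 ± 0.15 (0.404), Aldoc by 0.57 ± 0.24 and Slc16a3 by 0.56 ± 0.26, in each case with both p65 F/F libraries above both c-Rel F/F libraries. The summed B cell markers were 65.9 and 117 RPKM in the c-Rel F/F aTreg libraries and 15.5 to 36.6 in the other aTreg libraries, and their part in these values was not tested.

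The order of Hif1a over the 6 sorted groups was p65 F/F aTreg (145 RPKM), WT aTreg (118), c-Rel F/F aTreg (82.8), c-Rel F/F rTreg (55.2), p65 F/F rTreg (47.0) and WT rTreg (43.6). No neighbouring pair in this order passed the test. Shares within gene pairs are given as values, with no test. Slc16a3 made up 13.9% and 19.6% of the lactate carrier RPKM in WT rTreg and 22.9% to 29.2% in WT aTreg, and Pdk1 57.2% and 66.6% of the summed Pdk1 and Pdk3 RPKM in WT rTreg and 32.7% to 51.4% in WT aTreg. Slc2a3 made up 32.8% and 40.5% of the glucose carrier RPKM in WT rTreg and 48.3% to 50.4% in WT aTreg.

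Among neighbouring pathways in WT aTreg against rTreg, 0 of 7 pentose phosphate genes and 0 of 11 genes of the HIF machinery passed. Over all genes tested 7.54% rose and 4.68% fell, 12.2% together. Of 11 genes for pyruvate entry 2 fell, Pdp1 (5.01 ± 0.46 against 7.59 ± 0.19 RPKM, SD, n = 3 and 2) and Pdhx. Of 24 further hypoxia response genes 3 rose and none fell, a share near the 12.2% called over all genes. They include Rora, a nuclear receptor (19.4 ± 7.4 against 4.74 ± 1.37), and Bhlhe40, a transcription factor (33.4 ± 13.8 against 9.04 ± 1.88). In p65 F/F cells 3 rose as well, where 2.79% of all genes were higher. Of 19 other glycolytic and carrier genes 3 rose and 2 fell; Galm, galactose mutarotase, rose by 1.21 and Slc2a6, a low-level carrier, by 1.51 on the log2 scale. Of 13 upstream regulators Arrdc4 rose (1.21), and Txnip, an inhibitor of glucose uptake, and Rictor fell (-0.89 and -0.51).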

How the data were processed

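RNA of 19 Treg libraries was sequenced by the authors (TruSeq kit, per the labels' protocols; STAR, mm10 and DESeq2 1.10.1, per the submitters' processing notes). The deposited values are RPKM in 2 tables, with the authors' log2 fold change and p-value for some comparisons. Read counts are not in these tables, so no count test was run and depth is known only relatively. The design text gives 30 as the aim in megareads per sample. Of the sorted values 2.53% lie below 0 (lowest -30.7) after an adjustment by the authors whose method is not given in the sources used here. In 2495 of 2495 cases where at least 3 sorted libraries hold an identical value other than 0 for a gene, these libraries share a replicate number.

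From these files, values below 0 were set to 0, and a gene entered the test when 2 or more libraries of its set reached 1 RPKM (9945 genes stimulated, 10656 sorted). All groups of a set were fitted together on log2(RPKM + 0.5) with limma 3.58.1 in R 4.3.3 (eBayes with trend, two-sided, Benjamini-Hochberg adjusted over all genes tested, threshold 0.05); the fit was tested on simulated data. Fold changes are on the log2(RPKM + 0.5) scale, which understates those of low genes. Per-library values were printed as deposited; the authors' p-values were adjusted here. Shared windows and positions come from GENCODE M21 and promoters from the RefSeq table. The members and the lists were chosen with earlier results of these data known. Full values are given for up to 8 called members a direction of at least 5 RPKM, or for 4 separated members where none was called; other members were named by role, some after their values were seen. Alternatives were pseudocounts of 0.1 and 1, a filter at 3 RPKM or none, median-of-ratios scaling, robust eBayes, only the 2 groups compared, the replicate number as a block, and each library left out. No label says that a number marks a shared mouse or day, so the numbers were not treated as pairs. Same-numbered libraries did not deviate together throughout. For the sorted set this decides nothing, because an adjustment made by replicate number would alter such deviations. The library codes in the column names run in order by replicate number in both sets, so a batch by number remains possible. Values of some marker genes are not reported here.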

Additional observations from a re-analysis of the deposited data

How the results depend on the processing

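Of 792 values of named members under other settings, 744 kept their direction and their side of the threshold, 46 kept the direction but no longer passed, 2 came to pass and 0 reversed. The count of 14 members for pentoxifylline against water stayed within 11 to 14 over single libraries left out. The other counts moved with the libraries left out: 0 to 1 for c-Rel F/F against water, 12 to 17 for pentoxifylline against c-Rel F/F, 1 to 8 for WT aTreg against rTreg, and 0 in every case for p65 F/F aTreg against rTreg. A fit of only the 2 groups compared called 15 members for pentoxifylline against water and 18 for pentoxifylline against c-Rel F/F. Such a fit called 1 member for WT aTreg against rTreg and 9 for p65 F/F aTreg against rTreg. The cause was not tested. Except where stated above, the share of all genes called under each other setting, the replicate block included, is not given here. Counts under these settings are therefore not read as particular to the members.

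With the replicate block (replicate number as a term), 9 members were called for WT aTreg against rTreg, of which 3 were among the 5 called without it, 5 for p65 F/F and 4 for c-Rel F/F aTreg against rTreg, 16 for pentoxifylline against water and 20 for pentoxifylline against c-Rel F/F. In c-Rel F/F mice these 4 were Hif1a, P4ha1, Pdk1 and Slc16a3. The numbers share no stated source, so this block is a check and not a pairing. The correlation of same-numbered libraries' deviations ran from -0.07 to 0.40 in the stimulated set and from -0.49 to 0.44 in the sorted set. In the sorted set it cannot show whether a number marks a batch, because the values were adjusted before deposit. With 2 or 3 libraries a group and no counts, a difference that missed the threshold may be one that was not detectable.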

Other observations

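Txnip, which restrains glucose uptake, was 46.8 and 41.6 RPKM with water and 88.1 and 84.9 with pentoxifylline, a log2 difference of 0.96.

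Vegfa was 2.48 RPKM in the first stimulated c-Rel F/F library and 0.304 to 1.02 in the 5 others of that set. In the sorted set Vegfa was at most 0.121 RPKM in every library.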
